A study of Arabidopsis thaliana with 12 samples.

Results

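Chloroplasts and mitochondria keep small genomes of their own, but nearly all proteins that read and maintain those genomes are encoded in the nucleus. Pentatricopeptide repeat (PPR) proteins form one of the largest protein families of land plants. They bind organelle transcripts at chosen sequences and take part in their editing, splicing, trimming and translation. The S1 domain is an RNA-binding fold shared with bacterial ribosomal and RNA-degrading proteins, and the OSB proteins bind single-stranded DNA in organelles. Described here are 5 nuclear genes of these kinds, the PPR genes AT5G15280, AT2G46050 and AT4G21170, the S1-domain gene AT1G12800 and OSB1 (AT1G47720). They were selected on their deposited intensities in the same proline and water samples as well as on their named function, out of 692 array features that carry a single gene in the platform annotation and 3439 features in all. Each of the 5 had 1 such feature.

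The samples were 6 of wild-type Arabidopsis thaliana, ecotype Wassilevskija, given 100 mM proline for 3 h, and 6 of the same wild type given water. Per the labels the proline dose was meant to reach a toxic level in the cells. The labels give neither the plant part nor its age, and name a duration for the proline samples alone, so an effect of proline and one of sampling time cannot be told apart. Less RNA of a gene per cell and fewer cells that carry it cannot be told apart in such samples either. Each array listed 453 to 534 features at 0, and the array medians spanned 0.345 on the log2 scale. By limma with Benjamini-Hochberg adjustment, 1263 of the 2861 features tested changed (44.1%), with 523 higher (18.3%) and 740 lower (25.9%) in the proline samples. As deposited, without quantile normalization, the split was 702 higher and 483 lower.

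Of the 5 genes, 4 were higher and 1 was lower after proline, and the sizes differed widely. AT5G15280 was above 0 in every proline sample and close to 0 in water. AT1G12800 was several-fold higher after proline, AT2G46050 and OSB1 about equally higher by a smaller factor, and AT4G21170 slightly lower. For all 5, the proline and water intensities as deposited did not overlap, which was also true of 22.6% of the 3238 features with any value above 0 (15.4% with proline higher, 7.2% with proline lower). Because the genes were named with these values known, this count is a description and is given no test.

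**Figure D1:**
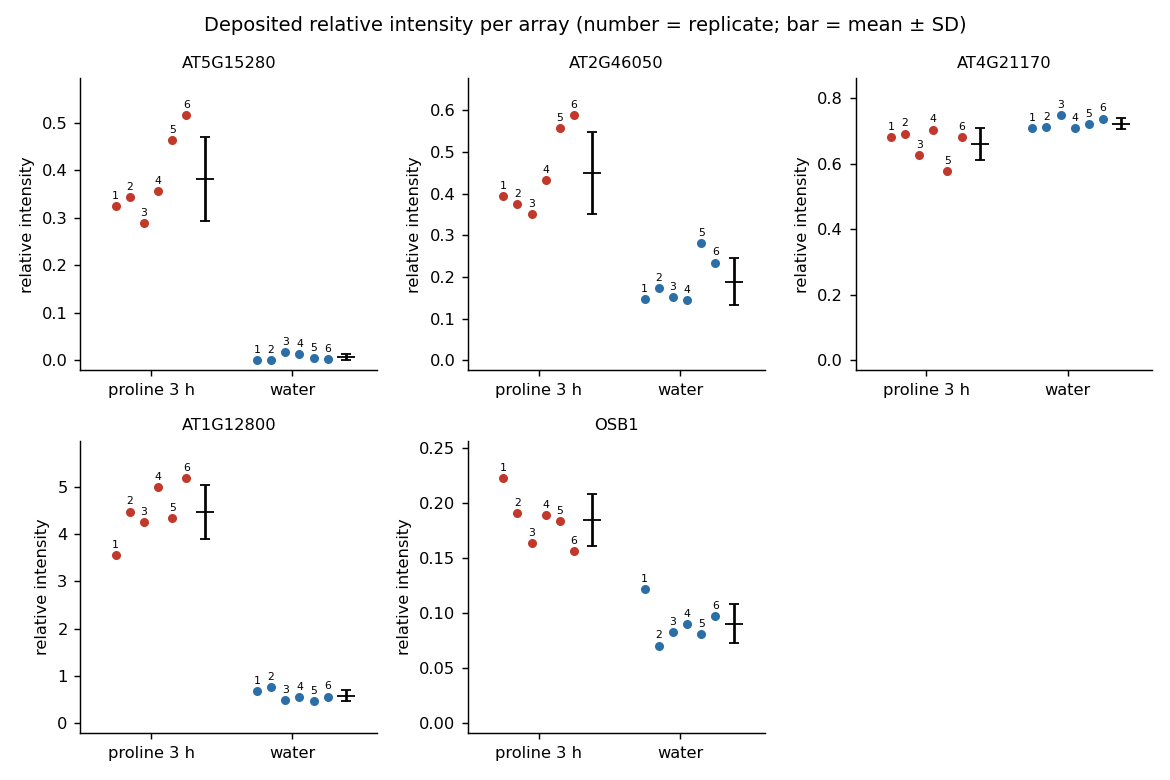
Deposited relative intensity (vertical axes, linear, from 0) of the 5 genes on each array, proline 3 h on the left and water on the right of each panel. Points are arrays with their replicate number, and black bars are the mean ± SD of 6 arrays. The 2 groups do not overlap in any panel, and the gap is narrowest for AT4G21170, where the highest proline sample was at 0.704 and the lowest water sample at 0.709.

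AT5G15280, a PPR gene, was near the lower end of the scale in water. Its relative intensity in proline replicates 1 to 6 was 0.325, 0.343, 0.288, 0.356, 0.463 and 0.516, and in water replicates 1 to 6 it was 0, 0, 0.0161, 0.0127, 0.00459 and 0.00203. Every proline sample was thus far above every water sample, and the lowest proline sample was 17.9 times the highest water sample. The mean was 0.382 ± 0.0881 after proline and 0.00591 ± 0.0069 in water (SD, n = 6 each, zeros counted), a ratio of 64.5. On the normalized log2 scale, where the 2 water zeros are missing, the difference was 5.72 ± 0.38 (SE). That value rests on 4 water intensities of 0.0161 or less, which are not known to lie above background, so it gives no firm size or rank. Setting zeros to the lowest value of their array gave 8.77, so the size of the fold is set by how the zeros are treated, while its direction is not. The replicates also ran in unlike order within the groups: replicates 5 and 6 were highest after proline, and replicates 3 and 4 were highest in water. The same-numbered differences therefore spanned 4.33 in replicate 3 to 7.23 in replicate 6 on the log2 scale. Of the 3439 features, 13 were listed at 0 in 2 to 5 water samples and in no proline sample, AT5G15280 among them. The reverse, 0 in 2 to 5 proline samples and in no water sample, held for 59. AT5G15280 was named with its values known, so these counts are a description.

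AT1G12800, the S1-domain gene, was measured well above 0 in both groups. Its intensity in proline replicates 1 to 6 was 3.56, 4.48, 4.25, 4.99, 4.35 and 5.19, and in water replicates 1 to 6 it was 0.682, 0.757, 0.481, 0.555, 0.463 and 0.560. The lowest proline sample was 4.71 times the highest water sample. The means were 4.47 ± 0.579 after proline and 0.583 ± 0.115 in water (SD, n = 6 each), a ratio of 7.67, and the normalized log2 difference was 2.67 ± 0.14 (SE), or 6.39-fold. It ranked 22 among the 2861 tested features and 7 among the 576 tested features with a single gene. Replicate 1 had the lowest intensity after proline, and replicates 1 and 2 had the highest in water. Their same-numbered differences, 2.11 and 2.26 on the log2 scale, were accordingly smaller than those of replicates 3 to 6, which lay between 2.88 and 3.00. The array holds another feature that lists AT1G12800 together with a second gene, and its reading cannot be assigned to either. It had 0.369 ± 0.0301 after proline and 0.251 ± 0.0424 in water (SD, n = 6 each), a normalized log2 difference of 0.30 ± 0.11 (SE), higher after proline as well but by a much smaller factor.

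AT2G46050, another PPR gene, was higher after proline in each same-numbered comparison. It had 0.395, 0.375, 0.352, 0.434, 0.557 and 0.589 in proline replicates 1 to 6, and 0.147, 0.174, 0.153, 0.144, 0.282 and 0.235 in water replicates 1 to 6. Replicates 5 and 6 were the highest in both groups, and the lowest proline sample was 1.25 times the highest water sample. The means were 0.450 ± 0.0991 after proline and 0.189 ± 0.0567 in water (SD, n = 6 each), a ratio of 2.38. Since replicates 5 and 6 were high in both groups, the same-numbered differences stayed within 0.70 to 1.36 on the normalized log2 scale, around a fitted difference of 1.05 ± 0.19 (SE).

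OSB1 is known in Arabidopsis for limiting the spread of rearranged mitochondrial DNA to the next generation. Its intensity was 0.223, 0.191, 0.163, 0.189, 0.184 and 0.156 in proline replicates 1 to 6, and 0.122, 0.0704, 0.0830, 0.0900, 0.0806 and 0.0974 in water replicates 1 to 6. Replicate 1 was the highest in both groups, and the lowest proline sample was 1.28 times the highest water sample. The means were 0.184 ± 0.0236 after proline and 0.0905 ± 0.0177 in water (SD, n = 6 each), a ratio of 2.04. The normalized log2 difference was 1.06 ± 0.15 (SE), with same-numbered differences of 0.70 to 1.51. OSB1 and AT2G46050 ranked 231 and 235 among the 2861 tested features, so differences upward of this size were not rare on the array.

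AT4G21170, the third PPR gene, was the one with lower values after proline. Its intensity was 0.682, 0.692, 0.626, 0.704, 0.578 and 0.681 in proline replicates 1 to 6, and 0.709, 0.711, 0.748, 0.709, 0.722 and 0.738 in water replicates 1 to 6. The groups came close to each other, with the highest proline sample at 0.704 and the lowest water sample at 0.709. The means were 0.661 ± 0.0485 after proline and 0.723 ± 0.0166 in water (SD, n = 6 each), a ratio of 0.914. Its replicates were unusually close together: only 43 of the 2861 tested features had a spread within the groups smaller than its 0.10 on the log2 scale (SD). The normalized log2 difference was -0.50 ± 0.08 (SE), and it was lower after proline in all 6 same-numbered comparisons, by -0.69 to -0.35. The size depended on the scaling. As deposited the log2 difference was -0.13 ± 0.07, after median scaling -0.33 ± 0.09 and after cyclic loess -0.38 ± 0.08 (SE). The value as deposited was thus not large against this SE. Limma draws the SE in part from the spread of all tested features, not from this gene alone.

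**Figure D2:**
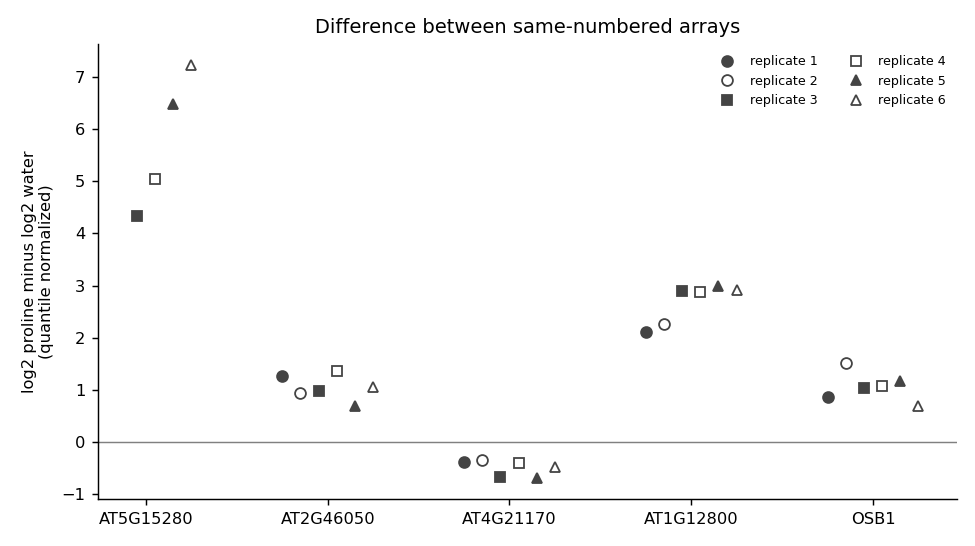
Difference on the quantile normalized log2 scale (vertical axis) between the proline and the water array of the same replicate number, for each of the 5 genes. Filled and open symbols of one shape are successive replicates, and AT5G15280 has 4 points because its water replicates 1 and 2 were listed at 0. All points of AT4G21170 lie below 0, between -0.69 and -0.35, and all others lie above 0.

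The scaling also moved the centre of all features. The median log2 difference of the tested features was -0.12 after quantile normalization, -0.14 after median scaling and 0.057 as deposited. Why small differences such as that of AT4G21170 depended on the scaling was not tested. Relative to that centre, AT1G12800, AT2G46050 and OSB1 kept similar distances. AT1G12800 stood 2.79 above it after quantile normalization and 2.89 as deposited, AT2G46050 1.17 and 1.22, and OSB1 1.18 and 0.98. AT4G21170 stood below the centre under every scaling run, by -0.38 after quantile normalization, -0.32 after cyclic loess and -0.19 both as deposited and after median scaling. Median scaling subtracts a constant from each array, so distances from the centre then repeat those as deposited and are no separate result. AT5G15280 stood 5.84 above the centre after quantile normalization, 5.76 as deposited and 6.17 after cyclic loess, all with its water zeros missing. With zeros set to the lowest value of the array it stood 8.88 above.

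**Figure D3:**
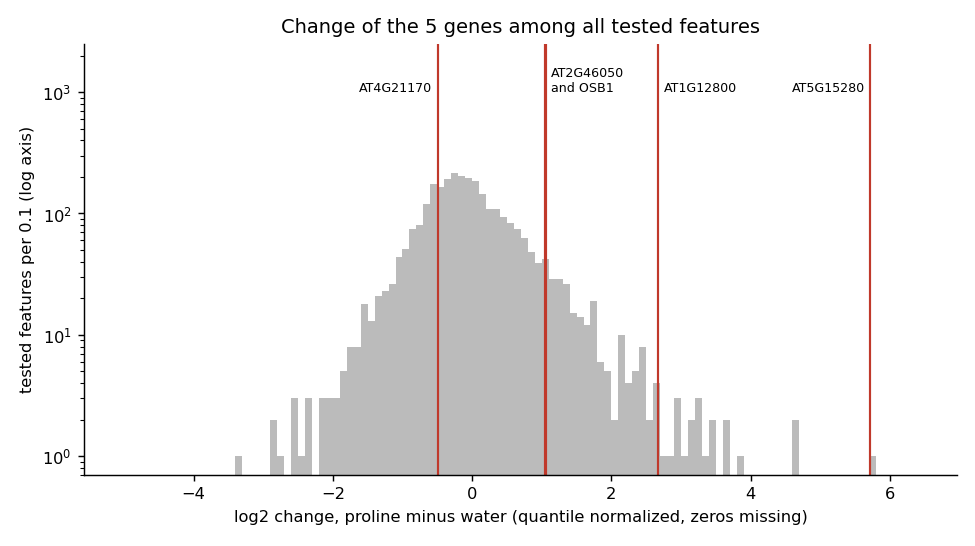
Number of tested features (vertical axis, log scale) by their log2 difference, proline minus water (horizontal axis), with red lines at the 5 genes. AT5G15280 lies at 5.72, a value that rests on 4 dim water intensities, with AT1G12800 at 2.67 in the upper tail, OSB1 and AT2G46050 at 1.06 and 1.05 on the upper flank, and AT4G21170 at -0.50 within the bulk.

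Within the groups, the arrays that were high differed from gene to gene. After the group means were subtracted, normalized deviations of the 5 genes correlated with each other at -0.45 to 0.19 over the 10 pairs of genes (10 to 12 arrays a pair, as a description). Replicate 1 was highest in both groups for OSB1 and replicates 5 and 6 for AT2G46050, while for AT5G15280, AT1G12800 and AT4G21170 different numbers were highest after proline and in water.

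The genes whose deposited intensities followed each of them most closely over the 12 arrays were sought among 643 other features with a single gene. For AT5G15280 they were AT5G06010, AT5G65220 and AT5G05400 (Pearson r = 0.992, 0.982 and 0.982). For AT1G12800 they were AT5G49840, AT4G14380 and AT4G22650 (r = 0.991, 0.990 and 0.990). For AT2G46050 they were AT3G04500, AT5G05400 and AT4G34310 (r = 0.971, 0.963 and 0.955), and for OSB1 AT3G59300, AT4G16410 and AT2G31920 (r = 0.956, 0.955 and 0.954). For AT4G21170 likeness was weaker, with AT1G31220 at 0.897, PIFI (named for a post-illumination rise in chlorophyll fluorescence) at 0.800 and AT1G12100 at 0.798. Over these arrays a step between the groups adds to the likeness of any genes that share it. Of the 643 features, 61 exceeded an r of 0.9 with AT1G12800, 46 with AT5G15280, 31 with OSB1 and 18 with AT2G46050, and none did with AT4G21170.

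A further 6 named genes on the array act on organelle RNA or its use. OTP70, OTP85 and CRR21 encode PPR proteins of chloroplasts, the first acting in splicing and the others in editing of plastid transcripts. AT5G55580 (mTERF9) belongs to the family named after mitochondrial transcription termination factors, PAC (PALE CRESS) is needed for plastid development, and ATAB2 binds RNA and acts in the synthesis of photosystem proteins. OTP85 could not be tested, since it was listed at 0 in 4 of 6 proline samples and 5 of 6 water samples. Of the 5 tested, 2 passed with lower values after proline, 0 passed with higher ones, and 3 did not pass. Of all tested features, 25.9% passed with lower and 18.3% with higher values, so these counts are near the background. As deposited 0 of the 5 passed, against 41.4% of all tested features, and with successive replicates averaged 0 of the 5 passed, against 23.1%. Proline and water intensities of all 6 overlapped as deposited, as they did for most features, since 22.6% of features with any value above 0 did not overlap.

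OTP70 had 0.451, 0.417, 0.569, 0.472, 0.577 and 0.541 in proline replicates 1 to 6, and 0.469, 0.504, 0.571, 0.561, 0.465 and 0.472 in water replicates 1 to 6. The deposited means were almost equal, 0.504 ± 0.0666 after proline and 0.507 ± 0.0479 in water (SD, n = 6 each). Its normalized log2 difference was -0.37 ± 0.11 SE (limma, adjusted p = 0.0157), but it was -0.01 as deposited (adjusted p = 0.933) and -0.21 after median scaling (adjusted p = 0.140). After cyclic loess it was -0.30 and passed narrowly (limma adjusted p = 0.0496). The call was also lost with successive replicates averaged (limma adjusted p = 0.150), and when both groups lacked replicates 1 and 2 (0.102) or lacked 3 and 4 (0.0861).

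PAC had 0.136, 0.106, 0.189, 0.179, 0.258 and 0.225 in proline replicates 1 to 6, and 0.239, 0.165, 0.198, 0.220, 0.281 and 0.270 in water replicates 1 to 6. The proline sample was the lower one under each of the 6 numbers, while the groups overlapped. The means were 0.182 ± 0.0558 after proline and 0.229 ± 0.0441 in water (SD, n = 6 each). The normalized log2 difference was -0.52 ± 0.18 SE (limma, adjusted p = 0.0306) and -0.37 as deposited (adjusted p = 0.191). The call was lost, with limma adjusted p of 0.0511 to 0.0647, without any of proline replicates 1 and 2 or water replicates 1, 4, 5 and 6.

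**Figure D4:**
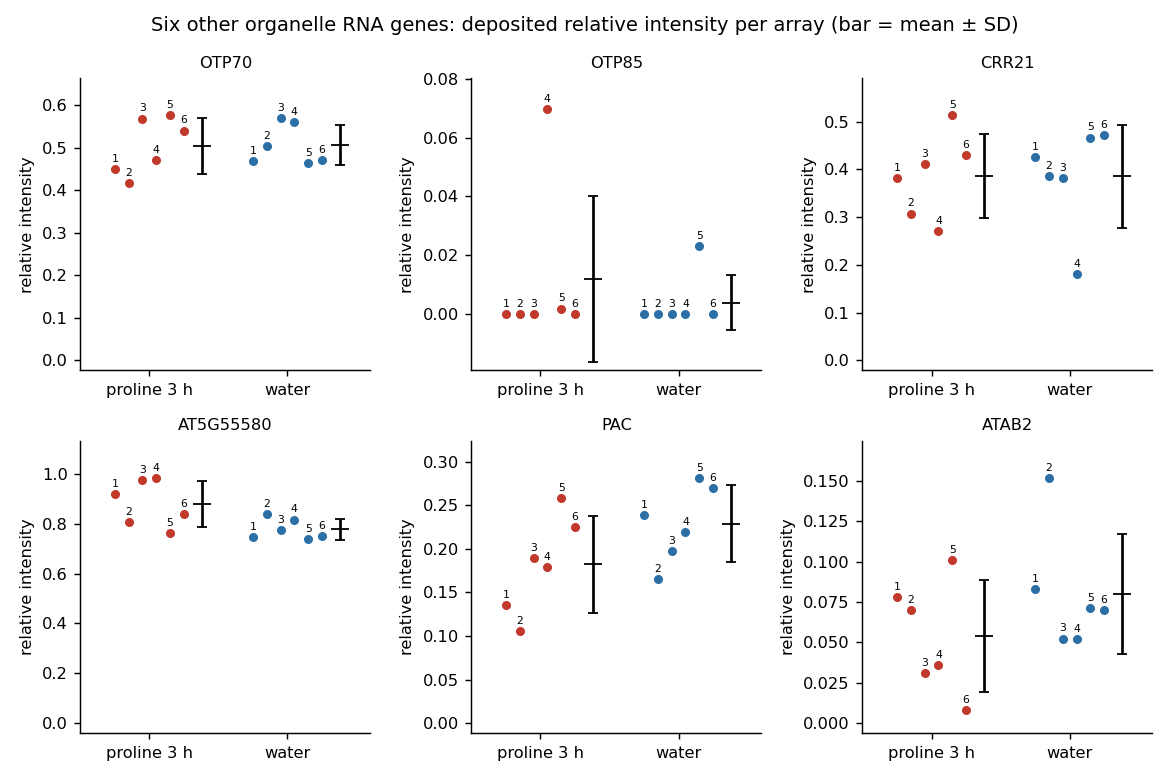
Deposited relative intensity (vertical axes, linear) of 6 other organelle RNA genes on each array, proline 3 h on the left and water on the right of each panel, with replicate numbers and mean ± SD of 6 arrays. The groups overlap in all 6 panels, and OTP85 is listed at 0 on 9 of 12 arrays.

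CRR21, AT5G55580 and ATAB2 did not pass, with normalized log2 differences of -0.27, -0.16 and -0.59 (limma, adjusted p = 0.379, 0.201 and 0.410). The first 2 changed sign as deposited, at 0.035 and 0.18. CRR21 passed without water replicate 4, its lowest sample (log2 difference -0.49, limma adjusted p = 0.0159), and also without replicates 3 and 4 of both groups. Of these genes, ATAB2 spread most relative to its mean, from 0.00788 to 0.101 after proline and from 0.0520 to 0.152 in water. Its log2 difference was -0.13 without proline replicate 6 and -0.35 without water replicate 2. Whether these 6 genes differ as a group from the 5 described above was not tested, because the 5 were named with their values known.

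**Figure D5:**
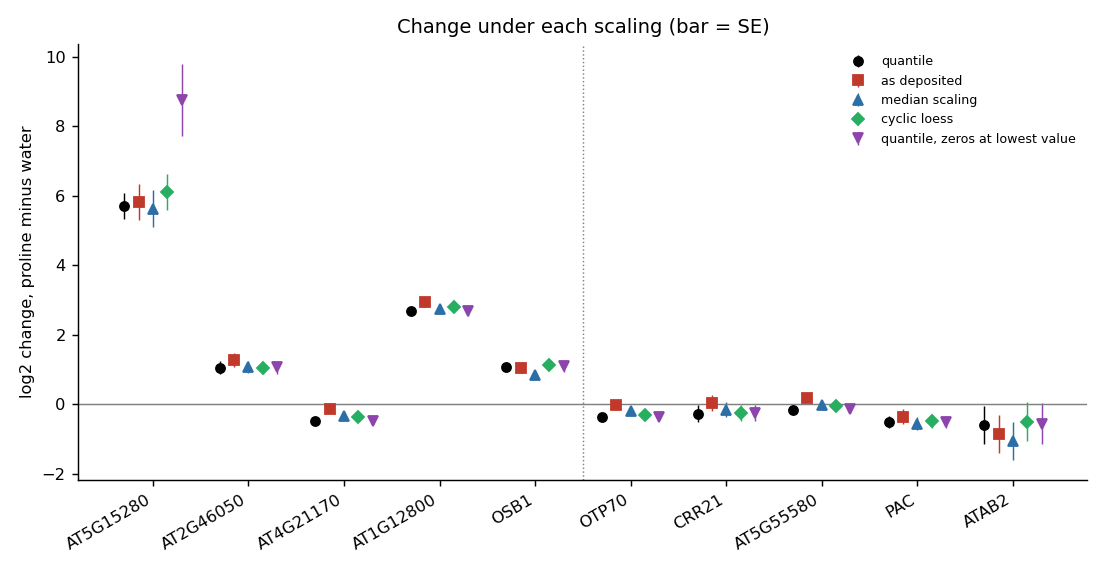
Log2 difference, proline minus water (vertical axis), of the 5 genes (left of the dotted line) and the 5 tested other organelle genes (right), under quantile normalization, as deposited, median scaling, cyclic loess, and quantile normalization with zeros at the lowest value of the array. Bars are standard errors. The treatment of zeros moves AT5G15280 from 5.72 to 8.77, and the scaling moves AT4G21170 between -0.50 and -0.13.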

How the data were processed

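Per the labels, total RNA of 12 plant samples was measured on one-colour arrays. The authors deposited 1 relative intensity per feature and array, on a linear scale from 0 to a ceiling of 100. The background correction, the scaling of arrays and the reason for zeros are not given here. Samples were grouped by the sample titles.

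Levels below are deposited intensities with zeros counted as 0. For changes, log2 intensities were quantile normalized after zeros were made missing values. The 2861 of 3439 features with a value in at least 4 of 6 samples of each group were fitted with limma 3.58.1 in R 4.3.3, without a block, and p-values were adjusted over all of them (Benjamini-Hochberg, two-sided, threshold 0.05). The calls were tested on simulated data. Far fewer features changed there than were called here, and the simulated samples varied independently. That test therefore cannot vouch for the calls at the share of changed features seen here. The labels do not tell whether replicates were separate plants. The p-values then reflect no more than the variation among these 12 samples, possibly technical, and the number of arrays limits the precision.

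The 5 genes, the lists, the tests and the alternatives were chosen with earlier results of these data known. The 5 genes were named with their own values in this contrast known, so no p is given for them. The rule for other named genes was every other gene of the organelle list that passed, and for each of the 5 genes the 3 genes most correlated with it. That list was to be drawn from gene descriptions. The gene tables hold symbols and synonyms but no descriptions, so 6 genes were taken from those names and known function, which departs from the planned keywords. Genes were named from features with 1 gene in GEO's platform annotation, which is old, through the TAIR10.1 gene table. Promoter and protein sequences were not analysed here.

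Both groups carry replicate numbers 1 to 6. Over 2674 features with a value on every array, the departures of a proline and a water sample of one number from their group means correlated at 0.184 to 0.403, and the closest match of each sample in the other group always carried its own number, so the numbers pair the samples by the data, not by the labels. Alternatives were other scalings, treatments of zeros and filters, the number as a fixed or random block (statmod 1.5.0), successive replicates averaged, array weights, another variance model, and leaving out samples or successive pairs. The main fit leaves the pairing by number out of its SE and p. With the number as a fixed block, the SE was smaller for AT2G46050 (0.11) and OSB1 (0.12). It was larger for AT5G15280 (0.51), AT1G12800 (0.15) and AT4G21170 (0.086).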

Additional observations from a re-analysis of the deposited data

Results flagged for a closer look

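Of 20 groups of 4 to 6 normalized values tested (5 genes and 5 others, each in both treatments), 2 held a sample beyond Dixon's limit, where chance gives about 1. AT4G21170 was at -0.17 on the log2 scale in water replicate 3, against -0.35 to -0.29 in the other water samples. CRR21 was at -2.37 in water replicate 4, against -1.19 to -0.94 in the other water samples.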

How the results depend on the processing

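The 5 genes kept their direction under every alternative that gave a value. They were named with these values known, and their proline and water intensities did not overlap. A change of direction was therefore hardly possible, and this and the ranges below are a description, not support. As deposited the log2 difference of AT4G21170 was -0.13 and that of AT1G12800 was 2.95. AT4G21170 was at -0.33 after median scaling and -0.38 after cyclic loess, and AT5G15280 at 8.77 with zeros set to the lowest value of the array. Leaving out 1 sample gave 5.60 to 5.78 for AT5G15280, 0.97 to 1.18 for AT2G46050, -0.52 to -0.45 for AT4G21170, 2.60 to 2.75 for AT1G12800 and 0.98 to 1.18 for OSB1. AT5G15280 has no such value without water replicate 3, 4, 5 or 6, since fewer than 4 water values were left, and none with a value required on every array.

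The number of changed features, 1263, was 1185 to 1219 without single samples, 661 when successive replicates were averaged, and 692 when those averages were also blocked by pair. With the fixed replicate block it was 1360 and with the random one 1423, and neither block changed a call of the other organelle genes. Of those 5 genes, 2 passed. The number was 0 as deposited, 1 after median scaling, 1 after cyclic loess, 0 with successive replicates averaged, blocked by pair or not, 0 without replicates 1 and 2 of both groups and 1 without replicates 3 and 4, where CRR21 passed and OTP70 and PAC did not. Without single samples it was 1 to 2. OTP70 passed under 21 of 27 alternatives and PAC under 15 of 27. As deposited, CRR21 and AT5G55580 changed sign, at 0.035 and 0.18, neither past the threshold (limma adjusted p = 0.918 and 0.126). The causes of these changes were not tested. The planned search for promoter motifs was not run, as no sequences were used. Signal over background is not known here, so how far noise sets dim values such as those of AT5G15280 in water cannot be stated.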
